A study of Gossypium hirsutum with 6 samples.

Results

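Cotton genes matched to the fermentation enzymes and sucrose synthases of Arabidopsis were followed in seedlings kept with or without an inhibitor of the TOR kinase. The deposited table pairs each cotton gene with an Arabidopsis locus, and the members are all genes matched to ADH1 (AT1G77120), PDC1 (AT4G33070), PDC2 (AT5G54960), LDH (AT4G17260), SUS1 (AT5G20830), SUS2 (AT5G49190), SUS3 (AT4G02280), SUS4 (AT3G43190), SUS5 (AT5G37180) or SUS6 (AT1G73370). There were 50 such genes of 70478 in the table, of which 32 matched fermentation enzymes and 18 matched sucrose synthases. The loci were chosen by enzyme, with earlier results of these libraries known. The only measured value in the rule is a mean of at least 0.5 FPKM (fragments per transcript length and sequencing depth) over the 6 libraries, below which no test was made. The seedlings were wildtype *Gossypium hirsutum* of the strain CCRI24, an allotetraploid with an A and a D subgenome, and none carried a transgene. At 4 d of age they were moved onto MS medium that held either DMSO, the solvent, or 5 μM AZD, an ATP-competitive TOR inhibitor, and were harvested after 24 h at a labelled age of 5 d. There were 3 libraries per treatment, described as biological repeats, and every direction below rests on the sample labels DMSO and AZD.

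In plants, fermentation keeps glycolysis running when respiration cannot reoxidize NADH. Pyruvate decarboxylase (PDC) turns pyruvate into acetaldehyde, alcohol dehydrogenase (ADH) reduces the acetaldehyde to ethanol, and lactate dehydrogenase (LDH) reduces pyruvate to lactate. Sucrose synthase (SUS) cleaves sucrose with UDP into UDP-glucose and fructose, and so feeds glycolysis at a lower ATP cost than invertase as well as cell wall synthesis, a role well known from the cotton fibre. In Arabidopsis, ADH1, PDC1, SUS1 and SUS4 are classical low-oxygen genes, SUS2 and SUS3 are known from seeds, and SUS5 and SUS6 from the sieve elements of the phloem.

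Between 50776 and 52832 genes were above 0 in a library. The first principal component separated the AZD-labelled libraries from those labelled DMSO, and DMSO replicate 1 stood apart on the second. Green tissue markers (antenna proteins) were expressed, while root markers were low: 21 genes matched to CASP1 to CASP5 and ESB1, which build the Casparian strip, reached at most 0.729 FPKM, and 16 genes matched to MYB36, their regulator, at most 2.11 FPKM, with 3 past the filter. Differences were tested with limma on log2(FPKM + 0.5) over 43158 genes, two-sided, with Benjamini-Hochberg adjustment, and called at an adjusted p under 0.05. The background of this comparison was 4.69% of tested genes called in either direction, with 1.89% higher and 2.8% lower under the AZD label. At an unadjusted p under 0.05 (limma) were 10087 of the 43158, the background of each such count below. RNA was taken from seedlings, so that fewer cells of a type and less RNA per cell cannot be told apart.

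Of the 50 members, 13 were listed at 0 in every library, 7 stayed below the filter and 30 were tested. In the AZD-labelled libraries 5 members were lower and none was higher (limma). At an unadjusted p under 0.05 (limma) were 14 of the 30, beside 10087 of all 43158 tested genes. The 5 lower members were 2 copies of ADH1, a copy of PDC1, a copy of PDC2 and a copy of SUS5. They make 16.7% of the tested members, beside the 2.8% of all tested genes that were lower. Without overlap between the groups, 14 members (46.7%) lay below and 1 above in the AZD-labelled libraries, beside 15.5% and 14.5% of all tested genes. The median log2 change was −1.03 over 17 tested fermentation genes and −0.50 over 13 tested sucrose synthases, against −0.01 over all tested genes. Of the 30, 5 passed the filter only through the DMSO-labelled libraries, with a mean under 0.5 FPKM in the AZD-labelled ones. None of these 5 was called, but 4 of them are among the 14 without overlap. Over the other 25 members, a restriction added after the data were seen, 10 (40.0%) lay below without overlap, and the medians were −0.54 over 13 fermentation genes and −0.47 over 12 sucrose synthases. Since the filter bears on these counts and medians, nothing is read from them. The count of 5 rests on the full set of libraries: it was 4 without DMSO replicate 1, 10 without DMSO replicate 2, and 1 without DMSO replicate 3 or without any of the AZD-labelled libraries. The count of lower genes over all tested genes moved too, from 1208 in full to 1589, 692 and 267 without DMSO replicates 1, 2 and 3. Without AZD replicates 1, 2 and 3 that count was 145, 149 and 190.

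**Figure D1:**
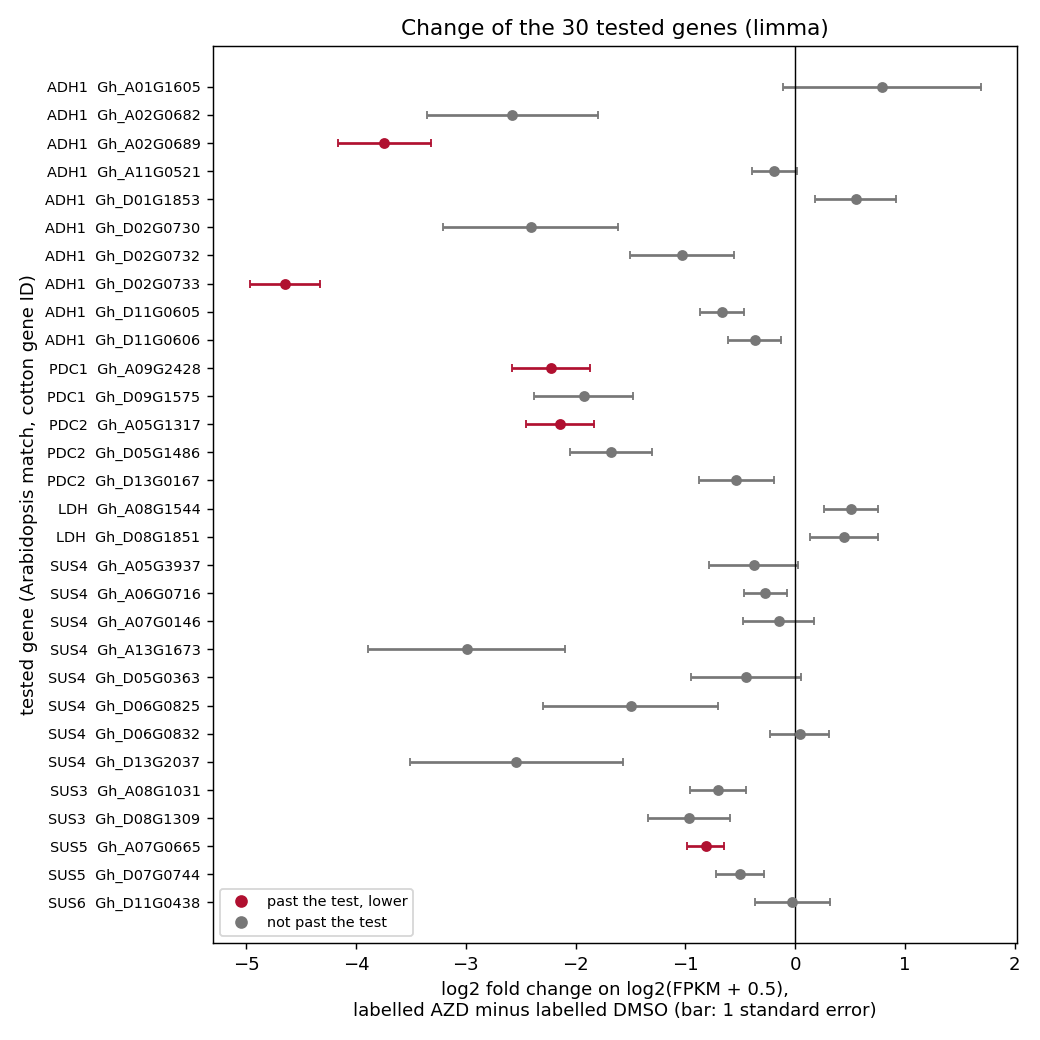
Log2 fold change (x axis, on log2(FPKM + 0.5), libraries labelled AZD minus libraries labelled DMSO, bars of 1 standard error) of the 30 tested genes, with the 5 past the test in red. The changes range from −4.65 in the ADH1 copy Gh_D02G0733 to 0.79 in the ADH1 copy Gh_A01G1605.

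The largest values belonged to ADH1. Gh_A02G0689, its most abundant copy, measured 762, 249.9 and 665 FPKM in the 3 libraries labelled DMSO, given in the order of their replicate numbers here and below, and 35.0, 34.1 and 42.8 FPKM in the 3 labelled AZD. Its mean was thus 559 ± 272 FPKM (SD, n = 3) against 37.3 ± 4.78 FPKM, a 15.0-fold lower level and a log2 change (on log2(FPKM + 0.5), as throughout) of −3.74 (standard error, SE, 0.43, limma, adjusted p = 0.0122). Gh_D02G0733 stood at 461, 194 and 336 FPKM in the DMSO-labelled libraries and at 10.3, 12.6 and 13.2 FPKM in those labelled AZD. The means were 27.5-fold apart, and on the log2(FPKM + 0.5) scale this was the widest difference of any member, with a log2 change of −4.65 (SE 0.32, limma, adjusted p = 0.00336). In both copies the groups lay far apart, and DMSO replicate 2 was the lowest library of its group. Gh_D02G0733 was past the test whichever library was left out (limma, highest adjusted p = 0.0303). Gh_A02G0689 did not pass without DMSO replicate 3 (limma, adjusted p = 0.0560) or without AZD replicate 1 (0.0771), 2 (0.0728) or 3 (0.0642).

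By their ID numbers, these copies lie among further ADH1 matches on the same chromosomes, with 5 genes on A02 and 3 on D02. The means of Gh_A02G0682 and Gh_D02G0730 were 41.8-fold and 43.1-fold apart, but both genes were low. Gh_A02G0682 stood at 8.60, 0.499 and 4.58 FPKM in the DMSO-labelled libraries and at 0, 0.225 and 0.102 FPKM in those labelled AZD (log2 change −2.58, limma, adjusted p = 0.115). Gh_D02G0730 measured 6.81, 0.318 and 4.55 FPKM against 0, 0.169 and 0.102 FPKM (log2 change −2.41, limma, adjusted p = 0.138). In each of these copies the groups did not overlap, but DMSO replicate 2 came close to the AZD-labelled libraries. With 1 library left out, both passed the test only without that library (limma, adjusted p = 0.0200 and 0.0119). Gh_D02G0732, at 1.78, 0.363 and 2.04 FPKM against 0.673, 0.169 and 0.254 FPKM, overlapped between the groups and was the tested ADH1 copy nearest the filter. Gh_A02G0686, Gh_A02G0687 and Gh_A02G0688 were listed at 0 in every library.

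The ADH1 matches on other chromosomes were not called. Gh_A01G1605 was the third most abundant copy, at 7.73, 13.4 and 83.1 FPKM in the DMSO-labelled libraries and at 28.1, 73.6 and 22.9 FPKM in those labelled AZD. Its groups overlapped, with a log2 change of 0.79 (SE 0.90, limma, adjusted p = 0.648). Gh_A11G0521 varied little, from 6.27 to 8.71 FPKM in the DMSO-labelled libraries and from 5.12 to 8.20 FPKM in those labelled AZD (log2 change −0.19, SE 0.20). On D11, Gh_D11G0605 lay at 6.18, 7.14 and 4.93 FPKM against 3.28, 3.07 and 4.63 FPKM, without overlap (log2 change −0.67, limma, adjusted p = 0.112). Its neighbour by ID, Gh_D11G0606, overlapped between the groups (log2 change −0.37, SE 0.24), as did Gh_D01G1853 (log2 change 0.55, SE 0.37). Whether the change differed between copies was not tested.

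**Figure D2:**
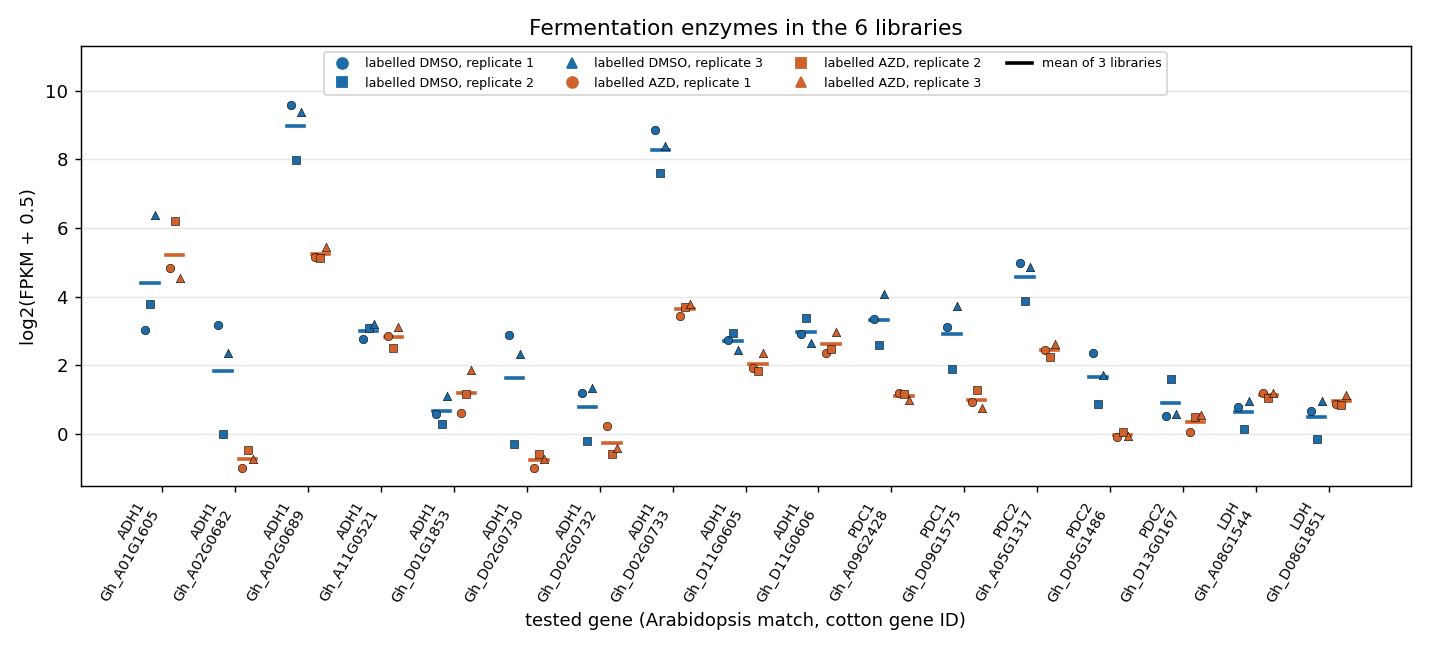
Level on the log2(FPKM + 0.5) scale (y axis) of the 17 tested fermentation genes (x axis) in the 3 libraries labelled DMSO (blue) and the 3 labelled AZD (orange), with a bar at each group mean. The groups are widest apart in Gh_A02G0689 and Gh_D02G0733, while Gh_A01G1605 and both tested LDH copies show no drop in the AZD-labelled libraries.

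Summed over all 16 ADH1 copies, the level was 1269, 485 and 1116 FPKM in the DMSO-labelled libraries and 89.8, 136 and 103 FPKM in those labelled AZD, 8.73-fold apart in the means. The 8 copies on A02 and D02 gave 97.7%, 91.8% and 90.6% of this sum in DMSO replicates 1, 2 and 3. They gave 51.1%, 34.7% and 54.8% in AZD replicates 1, 2 and 3. The other 8 copies together stood at 28.6, 39.9 and 104 FPKM against 43.9, 88.9 and 46.5 FPKM, so the make-up of the ADH1 signal as well as its size differed between the groups. Gh_A01G1605 alone made up at most 7.45% of the sum in a library labelled DMSO and at least 22.3% in a library labelled AZD. Within the A02 and D02 copies, the ratio of Gh_A02G0689 to Gh_D02G0733 was 1.65, 1.29 and 1.98 in the DMSO-labelled libraries and 3.41, 2.71 and 3.24 in those labelled AZD. These sums and shares are descriptions without a test, and how the pipeline divided reads between copies is not given in the sources used here.

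**Figure D3:**
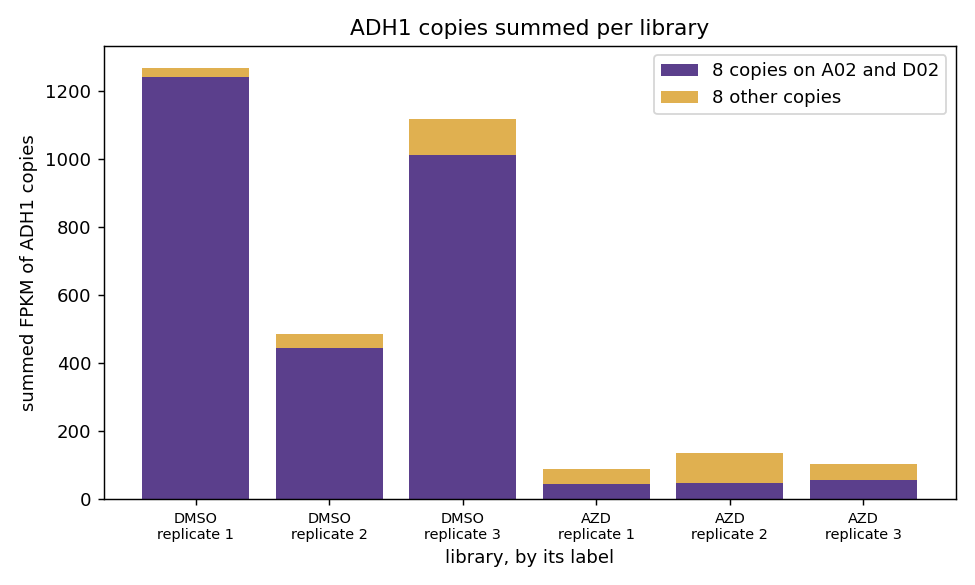
FPKM summed over ADH1 copies (y axis) in each library (x axis), split into the 8 copies on A02 and D02 (purple) and the 8 other copies (yellow). The purple part is 446 to 1240.3 FPKM in the DMSO-labelled libraries and 45.9 to 56.5 FPKM in those labelled AZD.

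Pyruvate decarboxylase, the enzyme before ADH, was lower in the AZD-labelled libraries in a copy of each gene. For PDC1, Gh_A09G2428 stood at 9.61, 5.54 and 16.3 FPKM in the DMSO-labelled libraries and at 1.77, 1.75 and 1.48 FPKM in those labelled AZD. The means of 10.5 ± 5.43 and 1.67 ± 0.162 FPKM (SD, n = 3) were 6.28-fold apart (log2 change −2.22, SE 0.35, limma, adjusted p = 0.0280). Gh_D09G1575 followed closely, at 8.18, 3.24 and 12.7 FPKM against 1.42, 1.91 and 1.19 FPKM, and was just not past the test (log2 change −1.92, limma, adjusted p = 0.0658). In both PDC1 copies DMSO replicate 3 was highest and DMSO replicate 2 lowest, and no library labelled AZD reached the lowest of them. The A09 to D09 ratio ranged from 1.18 to 1.71 in the DMSO-labelled libraries and from 0.915 to 1.25 in those labelled AZD.

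For PDC2, Gh_A05G1317 stood at 31.0, 14.2 and 28.8 FPKM in the DMSO-labelled libraries and at 4.91, 4.28 and 5.61 FPKM in those labelled AZD. Its means of 24.7 ± 9.17 and 4.93 ± 0.665 FPKM (SD, n = 3) were 5.00-fold apart (log2 change −2.14, SE 0.31, limma, adjusted p = 0.0217). Gh_D05G1486 was lower in level throughout, at 4.67, 1.32 and 2.78 FPKM against 0.436, 0.550 and 0.461 FPKM (log2 change −1.68, limma, adjusted p = 0.0592). Again the groups did not overlap and DMSO replicate 2 was the lowest of its group. Gh_D13G0167, the remaining tested copy, overlapped between the groups and was highest in DMSO replicate 2 (log2 change −0.54, SE 0.34). The copies of PDC1 and PDC2 past the test did not pass without DMSO replicate 3 or without any 1 of the AZD-labelled libraries (limma, adjusted p from 0.0560 to 0.125).

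LDH, which makes lactate in place of ethanol, was low, and its 2 tested copies were not lower in the AZD-labelled libraries. Gh_A08G1544 stood at 1.22, 0.603 and 1.47 FPKM in the DMSO-labelled libraries and at 1.78, 1.56 and 1.80 FPKM in those labelled AZD. It was the only tested member whose values all lay above those of the DMSO-labelled libraries, and it was not past the test (log2 change 0.51, SE 0.24, limma, adjusted p = 0.270). Gh_D08G1851 overlapped, from 0.402 to 1.47 FPKM and from 1.31 to 1.69 FPKM (log2 change 0.45, SE 0.31). In both copies DMSO replicate 2 was the lowest of all libraries. Under the filter, Gh_A12G2006 and Gh_D12G2181 had DMSO means of 0.526 and 0.446 FPKM and lower AZD means of 0.227 and 0.290 FPKM. The sum over all 7 LDH genes was 2.11 to 3.61 FPKM against 3.11 to 4.33 FPKM.

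Among the sucrose synthases SUS4 had the most copies, with 11 genes of which 8 were tested and none was called (limma). At an unadjusted p under 0.05 (limma) were 2 of the 8, beside 10087 of all 43158 tested genes. On chromosome A13, Gh_A13G1673 stood at 23.4, 3.33 and 39.0 FPKM in the DMSO-labelled libraries and at 1.27, 3.11 and 0.624 FPKM in those labelled AZD. Its means were 13.1-fold apart, but DMSO replicate 2 lay next to AZD replicate 2 (log2 change −2.99, SE 0.90, limma, adjusted p = 0.114). Gh_D13G2037 on D13 had the same shape, at 20.9, 3.33 and 45.4 FPKM against 1.52, 5.74 and 1.02 FPKM, and its groups overlapped (log2 change −2.54, SE 0.97, limma, adjusted p = 0.186). Without DMSO replicate 2, Gh_A13G1673 passed the test (limma, adjusted p = 0.0386) and Gh_D13G2037 did not (limma, adjusted p = 0.0744). The values of these copies in DMSO replicate 2 were identical in the table. In all, 5 pairs of members had the same value above 0 in 1 library each, among them ADH1 Gh_A02G0682 and Gh_D02G0730 in AZD replicate 3 and LDH Gh_A08G1544 and Gh_D08G1851 in DMSO replicate 3. Whether such pairs share reads was not tested, and their levels are uncertain to that extent.

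The most abundant SUS4 copies lay on chromosome 5 and were not called, with a wide spread within the groups. Gh_D05G0363 stood at 24.0, 16.8 and 60.3 FPKM in the DMSO-labelled libraries and at 18.5, 32.7 and 15.5 FPKM in those labelled AZD (log2 change −0.45, SE 0.50). Gh_A05G3937 had the same order of libraries, from 11.7 to 28.9 FPKM and from 9.05 to 19.6 FPKM (log2 change −0.38, SE 0.41). Both overlapped, with DMSO replicate 3 highest in its group and AZD replicate 2 highest in the other. Gh_D06G0825 stood out in a single library, at 9.28 FPKM in DMSO replicate 3 and from 0.171 to 0.941 FPKM in the other 5 (log2 change −1.50, SE 0.80). The remaining copies Gh_D06G0832, Gh_A06G0716 and Gh_A07G0146 had means of 0.783 to 4.98 FPKM and log2 changes of 0.04, −0.27 and −0.15. Over all 8 tested SUS4 copies, AZD replicate 2 was the highest library labelled AZD in 7, and DMSO replicate 3 the highest labelled DMSO in 6.

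**Figure D4:**
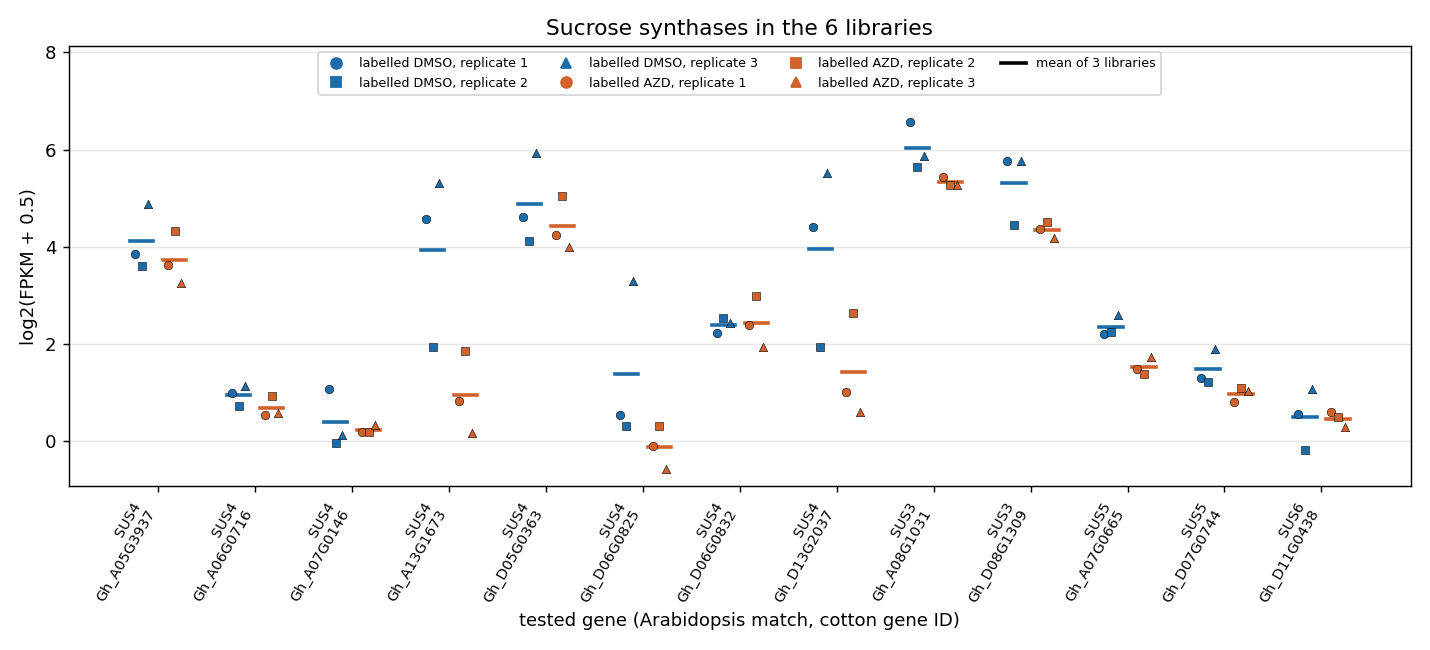
Level on the log2(FPKM + 0.5) scale (y axis) of the 13 tested sucrose synthase genes (x axis) in the 3 libraries labelled DMSO (blue) and the 3 labelled AZD (orange), with a bar at each group mean. The SUS4 copies on A13 and D13 are spread widely within the DMSO group, and SUS3 is the most abundant.

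SUS3 was the most abundant sucrose synthase per copy. Gh_A08G1031 stood at 94.9, 49.3 and 58.1 FPKM in the DMSO-labelled libraries and at 43.0, 38.3 and 38.0 FPKM in those labelled AZD, without overlap (log2 change −0.70, SE 0.25, limma, adjusted p = 0.167). Gh_D08G1309 measured 53.7, 21.2 and 53.7 FPKM against 20.02, 22.4 and 17.7 FPKM, where DMSO replicate 2 lay within the range of the AZD-labelled libraries (log2 change −0.97, SE 0.37, limma, adjusted p = 0.186). Neither SUS3 copy was past the test, and with 1 library left out Gh_D08G1309 passed only without DMSO replicate 2 (limma, adjusted p = 0.0242). Summed over both copies, SUS3 came to 149, 70.5 and 112 FPKM against 63.0, 60.7 and 55.7 FPKM. The sum over SUS4 was 90.3, 42.8 and 189.9 FPKM against 39.9, 71.4 and 31.5 FPKM, with overlap.

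SUS5, a sieve element enzyme in Arabidopsis, gave the only sucrose synthase past the test. Gh_A07G0665 stood at 4.08, 4.22 and 5.57 FPKM in the DMSO-labelled libraries and at 2.29, 2.11 and 2.81 FPKM in those labelled AZD. The 1.92-fold difference between the means of 4.62 ± 0.822 and 2.40 ± 0.360 FPKM (SD, n = 3) was small beside that of ADH1 (log2 change −0.81, SE 0.17, limma, adjusted p = 0.0488). It did not pass with any 1 library left out (limma, adjusted p from 0.0507 to 0.185). Gh_D07G0744 stood at 1.97, 1.82 and 3.25 FPKM against 1.24, 1.62 and 1.55 FPKM, also without overlap and not past the test (log2 change −0.50, limma, adjusted p = 0.235). SUS6 had 1 copy, Gh_D11G0438, at 0.981, 0.382 and 1.61 FPKM against 1.01, 0.916 and 0.723 FPKM (log2 change −0.03, SE 0.34). The 1 gene matched to SUS1, Gh_D09G0216, and the 1 matched to SUS2, Gh_A10G1474, were listed at 0 in every library. The phloem markers, copies of the sucrose carrier SUC2, APL, SEO and CALS7, summed to 84.6 to 123 FPKM in the DMSO-labelled libraries and to 153 to 168 FPKM in those labelled AZD, with 1 of 19 tested genes higher and none lower. SUC2 alone carried this, at 63.9 to 92.8 FPKM against 131 to 149.6 FPKM, and the other 43 genes overlapped, at 20.7 to 37.1 FPKM against 17.9 to 24.6 FPKM. Of the 19, 13 had a negative log2 change, with a list median of −0.13. Without overlap, 3 (15.8%) lay below and 2 above, beside 15.5% and 14.5% of all tested genes. The 1 gene called higher was 5.26% of the 19, beside 1.89% of all tested genes. Nothing is read from these counts. The part of the phloem markers in the values of SUS5 was not tested.

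The members nearest the filter were low everywhere. Just inside it were Gh_A07G0146 (SUS4, mean 0.783 FPKM) and Gh_D02G0732 (ADH1, mean 0.880 FPKM), and just outside Gh_A12G2006 (LDH, mean 0.377 FPKM) and Gh_A11G0522 (ADH1, mean 0.373 FPKM). The 7 members under the filter reached at most 0.895 FPKM in any library. Among the tested members the order of levels by mean FPKM began with ADH1 Gh_A02G0689 at 298 and Gh_D02G0733 at 171, followed by SUS3 Gh_A08G1031 at 53.6, ADH1 Gh_A01G1605 at 38.2, SUS3 Gh_D08G1309 at 31.4 and SUS4 Gh_D05G0363 at 28.0. In the AZD-labelled libraries the first of these was not ahead: ADH1 Gh_A02G0689 at 37.3 ± 4.78 FPKM, SUS3 Gh_A08G1031 at 39.8 ± 2.82 FPKM and ADH1 Gh_A01G1605 at 41.5 ± 27.9 FPKM (SD, n = 3) lay within their spread.

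DMSO replicate 2 was the lowest library of its group in 23 of the 30 tested members. This held for 12 of 17 fermentation genes and 11 of 13 sucrose synthases. How often DMSO replicate 2 was lowest over all tested genes was not counted. Its ratio to the mean of the AZD-labelled libraries was 6.70 in ADH1 Gh_A02G0689, 3.32 in PDC1 Gh_A09G2428, 2.87 in PDC2 Gh_A05G1317 and 1.998 in SUS4 Gh_A13G1673. The same ratios were 20.4, 5.76, 6.29 and 14.0 for DMSO replicate 1, and 17.8, 9.77, 5.85 and 23.4 for DMSO replicate 3. The libraries labelled DMSO thus differed widely among themselves, most of these 4 genes in SUS4 Gh_A13G1673. For DMSO replicates 1, 2 and 3 the ratios were 38.4, 16.2 and 28.0 in the called ADH1 copy Gh_D02G0733. In the called SUS5 copy Gh_A07G0665 they were 1.70, 1.75 and 2.32, with DMSO replicate 1 lowest.

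Genes around these enzymes were followed as lists written by Arabidopsis locus. None of 13 tested genes for other alcohol dehydrogenases was called (limma, 3 at an unadjusted p under 0.05), with a median log2 change of 0.05. Over all tested genes, 10087 of 43158 were under that unadjusted p. The most abundant gene of the list was the GSNOR copy Gh_A07G1856, a class III alcohol dehydrogenase, at 28.3, 36.0 and 37.3 FPKM against 32.8, 34.0 and 30.6 FPKM. For the mitochondrial pyruvate dehydrogenase, which competes with PDC for pyruvate, none of 17 tested genes was called (limma, 1 at an unadjusted p under 0.05), with a median of 0.06. Its most abundant entry, the E1α match Gh_D04G0512, was at 0 in some libraries and very high in others, at 0, 0 and 1199.5 FPKM against 0, 347 and 745 FPKM.

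Acetaldehyde that is not reduced to ethanol can be oxidized to acetate by aldehyde dehydrogenase and activated to acetyl-CoA. On this route 3 of 14 tested genes were lower and none higher, 21.4% beside 2.8% of all tested genes. Both tested copies of ALDH2B7 were among them, with Gh_A07G2011 at 16.3, 28.0 and 40.1 FPKM in the DMSO-labelled libraries and 5.44, 6.32 and 6.90 FPKM in those labelled AZD (log2 change −2.01, limma, adjusted p = 0.0277). The third, the ALDH2C4 match Gh_A06G0526, was just past the test (log2 change −1.25, limma, adjusted p = 0.0497). Of the 14, 2 passed the filter with a mean under 0.5 FPKM in the AZD-labelled libraries, and neither was called. The most abundant gene of the list, the ALDH2B4 copy Gh_A12G2471, stood at 35.3, 60.5 and 54.1 FPKM against 53.0, 43.4 and 49.0 FPKM and was not past the test. None of the 3 lower genes was called without DMSO replicate 3 or without any 1 AZD-labelled library. Here DMSO replicate 1, and not replicate 2, was the lowest of its group in Gh_A07G2011 and Gh_A12G2471.

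Alanine is a further end product of anaerobic pyruvate use, made by alanine aminotransferase. Of 16 tested genes for alanine and GABA, 2 were lower and none higher, and both matched ALAAT2 (12.5% beside 2.8%), with 1 called without any 1 AZD-labelled library. Gh_A10G2228 stood at 11.4, 18.5 and 18.2 FPKM in the DMSO-labelled libraries and at 2.89, 2.70 and 2.77 FPKM in those labelled AZD (log2 change −2.30, limma, adjusted p = 0.00682). The most abundant gene of this list, the GABA transaminase copy Gh_A11G1445, stood at 64.7 to 74.3 FPKM against 55.3 to 57.5 FPKM and was not past the test. The list's median was −0.09.

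On the sucrose side no list gene was called. The 19 tested genes for UDP-glucose pyrophosphorylase and fructokinase, which take up the products of sucrose synthase, had a median of −0.03 (limma, 2 at an unadjusted p under 0.05). The UGP2 copy Gh_D11G1720, the most abundant, stood at 45.5, 48.3 and 58.3 FPKM against 45.0, 47.2 and 41.2 FPKM. Sucrose synthesis, by sucrose-phosphate synthase and its phosphatase, had a median of 0.35 over 13 tested genes (limma, 6 at an unadjusted p under 0.05). Over all tested genes, 10087 of 43158 were under that unadjusted p. The most abundant gene of sucrose synthesis, Gh_A04G0466, stood at 30.5, 24.1 and 21.6 FPKM against 39.3, 31.3 and 41.0 FPKM, without overlap and not past the test. Without DMSO replicate 1, 3 genes of sucrose synthesis were higher, but this setting also gave 1814 higher genes in all, against 817 in full.

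The regulators that accompany ADH1 and PDC1 under low oxygen in Arabidopsis were lower throughout. All 15 tested genes matched to HB1, HRA1, LBD41, PCO1, PCO2 and SRO5 were past the test and lower, beside 2.8% of all tested genes. The median log2 change was −3.49, and the list was written with earlier results of these libraries known. HB1, a haemoglobin that removes nitric oxide, stood at 320, 209 and 176 FPKM in the DMSO-labelled libraries and at 5.89, 2.88 and 8.73 FPKM in those labelled AZD in Gh_A04G1100 (log2 change −5.29, limma, adjusted p = 0.00477). The smallest change of the list was that of the PCO2 copy Gh_A05G3159 (log2 change −1.07, limma, adjusted p = 0.0375). Of the 15, 5 passed the filter with a mean under 0.5 FPKM in the AZD-labelled libraries. Since the median includes these 5, nothing is read from its size. The count of 15 became 14, 13 and 10 without DMSO replicates 1, 2 and 3, and 6, 7 and 7 without AZD replicates 1, 2 and 3. In the same settings the lower genes over all tested genes numbered 1589, 692 and 267, and 145, 149 and 190, against 1208 in full. As in the members, DMSO replicate 2 was the lowest of its group in most of these regulators, in 13 of 15.

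**Figure D5:**
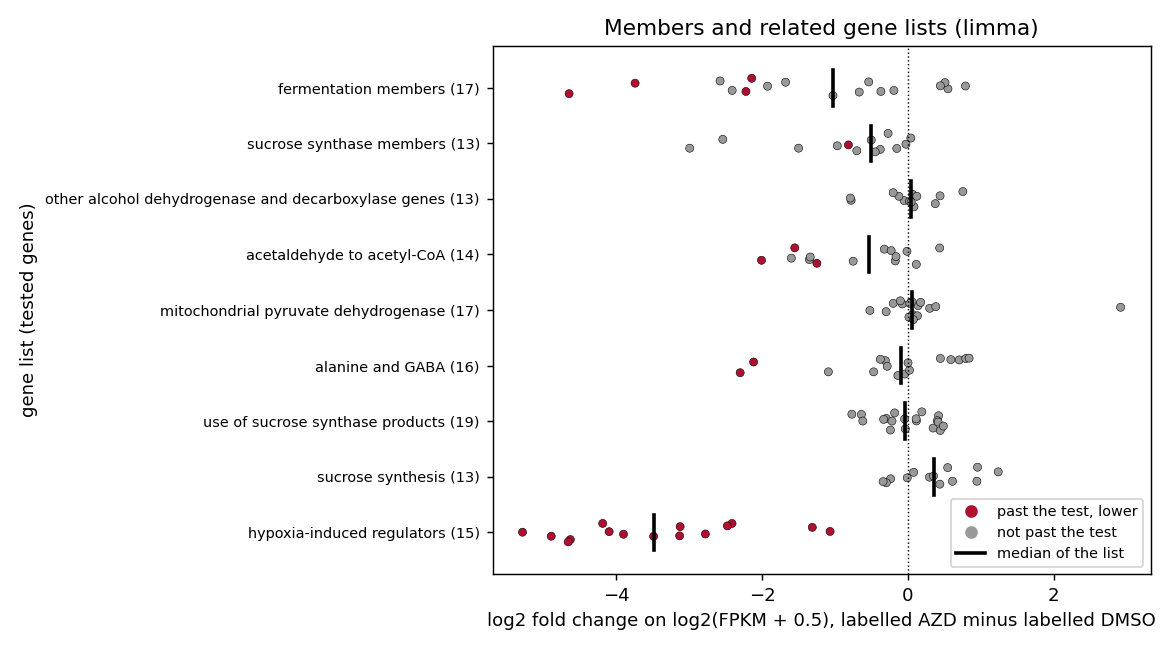
Log2 fold change (x axis, on log2(FPKM + 0.5), libraries labelled AZD minus libraries labelled DMSO) of each tested gene, by list (y axis, number of tested genes in brackets), with a bar at the list's median and genes past the test in red. The hypoxia-induced regulators lie at −5.29 to −1.07, while the medians of the pyruvate dehydrogenase and sucrose synthesis lists are 0.06 and 0.35.

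Genes with the pattern most like that of the most abundant member were sought over the 6 libraries by Pearson's correlation of log2(FPKM + 0.5), as a description. For ADH1 Gh_A02G0689 they were Gh_D05G2431 (matched to AT1G20270, r = 0.9995), Gh_D06G2235 (AT4G17230, r = 0.9988) and Gh_A09G1336 (HRA1, r = 0.9984). Gh_A09G1336 stood at 18.7, 8.28 and 16.8 FPKM in the DMSO-labelled libraries and at 2.08, 1.85 and 2.69 FPKM in those labelled AZD. HRA1 encodes a trihelix factor that dampens the low-oxygen response in Arabidopsis. For SUS3 Gh_A08G1031 they were Gh_D05G0061 (AT4G30420, r = 0.9966), Gh_A01G1681 (AT2G40890, r = 0.9957) and Gh_A09G2380 (AT4G22680, r = 0.9956). All 3 were highest in DMSO replicate 1, as was SUS3 itself, and all stood at no more than 2.01 FPKM. With 6 libraries and a difference between groups, many genes can reach such values.

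Green tissue markers moved the other way over the same libraries. Their summed level was 6100 to 11730.3 FPKM in the DMSO-labelled libraries and 24082 to 26974 FPKM in those labelled AZD. Of 34 tested genes, 18 were higher (52.9%, beside 1.89% of all tested genes) and none was lower. Seed reserve markers summed to 26.8 to 35.3 FPKM against 12.6 to 38.2 FPKM, with none of 7 tested genes called (limma, 2 at an unadjusted p under 0.05). Over all tested genes, 10087 of 43158 were under that unadjusted p. Root markers summed to 3.59 to 10.5 FPKM against 2.90 to 3.97 FPKM, with 43 of 46 genes under the filter. Not all went the same way: the 5 detected genes matched to EXPA7 each had a higher mean under the AZD label. These EXPA7 genes reached at most 0.490 FPKM in any library, and none was tested. Of the 3 root genes tested, all matched to MYB36, none was called (limma, 2 at an unadjusted p under 0.05). The part of these tissues in the differences of ADH1, PDC and the sucrose synthases was not tested.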

How the data were processed

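RNA from cotton seedlings, 3 libraries labelled DMSO and 3 labelled AZD, was sequenced as paired-end reads. The authors deposited FPKM per gene and library, made with TopHat2, Cufflinks and Cuffdiff. Tool versions and the genome build: not given in the sources used here. Whether the FPKM were also rescaled between libraries is not stated. Summed FPKM ran from 2773880 in AZD replicate 2 to 6222400 in AZD replicate 1. Median-of-ratios scaling factors ran from 0.981 in AZD replicate 2 to 1.02 in AZD replicate 1. All 6 value columns were used. FPKM are not counts, so no count model was used, and the fragments behind a value, which set its precision, were not used here.

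The 43158 genes averaging 0.5 FPKM or more were tested on log2(FPKM + 0.5) by limma 3.58.1 with a variance trend (R 4.3.3), and 2025 were called. Fold changes on this scale understate those of genes near 0. For 1 gene alone, exact permutation of 3 libraries against 3 gives p = 0.1 at the lowest. The repeats are described as biological; whether they were separate cultures is not stated, and p-values measure only the spread between these libraries. Gene names are those of the Arabidopsis match. The members and lists were chosen with earlier results of these data known. All members could be named; the text gives all values for those called, the most abundant copy of each locus and those nearest the filter, and of each list the largest rise and fall past the test and the most abundant gene. Further members, the ALDH2C4 gene and the ALDH2B7, ALAAT2 and PCO2 counts were added after their values were seen. The alternatives were other pseudocounts (0.1 or 1), filters, scalings (median-of-ratios, quantile), no trend, the replicate number as a block, the log2 ratio of means, and leaving out each library. The test was checked on simulated data. Cotton sequences and coordinates were not used here.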

Additional observations from a re-analysis of the deposited data

How the results depend on the processing

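The 5 called members kept their sign under every alternative run. Their number was 4 to 6 with another pseudocount, filter or scaling and without the trend, and ranged from 1 to 10 with 1 library left out; SUS5 Gh_A07G0665 was lost without the filter (limma, adjusted p = 0.0740) and without the trend (adjusted p = 0.0604). Over all tested genes, leaving out 1 library gave 44 to 1814 higher and 145 to 1589 lower genes, against 817 and 1208 in full. In the lists around the members, it gave 0 to 5 higher and 7 to 20 lower genes, against 0 and 20, and 1 was higher without the filter. Whether the library numbers pair the samples is not stated in the sources used here. Deviations of same-numbered libraries from their group means correlated at 0.02, −0.04 and −0.09. With 3 libraries per group, these values cannot settle the question. With the replicate number as a block, 1 member (Gh_D02G0733, limma, adjusted p = 0.0456), 6 list genes, and 14 higher and 58 lower genes in all were past the test. The sign turned in 5 members, none of them called. SUS6 Gh_D11G0438 reached 0.019 with a pseudocount of 0.1 and 0.021 after quantile normalization, and −0.36 to 0.27 with 1 library left out. Without 1 library, SUS4 Gh_A05G3937 ranged from −0.67 to 0.0036, Gh_A07G0146 from −0.36 to 0.19, Gh_D05G0363 from −0.83 to 0.073 and Gh_D06G0832 from −0.23 to 0.29. The cause was not tested. By the log2 ratio of group means, 8 members moved by at least their limma standard error, with no change of sign, as far as −5.43 in Gh_D02G0730.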
